A study of Mus musculus with 7 samples.

Results

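The genes that release calcium from the sarcoplasmic reticulum of skeletal muscle and return it there were examined in tibialis anterior (TA) muscle with and without *Mybpc2*. The list held 10 genes: *Cacna1s*, *Stac3*, *Ryr1*, *Trdn*, *Jph1*, *Jph2*, *Casq1*, *Pvalb*, *Atp2a1* and *Sln*. They were chosen by function, with earlier results of these data known. Of these, 9 were among the 12239 genes analysed, and *Sln* was not analysed here. The TA flexes the ankle and in mice consists mostly of fast fibres. It was taken from male FVBN mice, aged 5 to 6 months by the sample labels. The 4 wild-type (WT) libraries came from FVBN/WT animals. The 3 C2-/- libraries came from *Mybpc2* knockout mice on the same background, in which a Neo cassette between LoxP sites replaced exons 2 to 22 of the gene for fast myosin-binding protein C (fMyBP-C). No treatment and no tissue-specific driver is described for either group. Polyadenylated RNA was sequenced as DNA nanoballs. The study's legend counts as many mice in each group as there are libraries, and the columns carry separate identifiers, although the sample labels name no animal. The p-values below measure the spread between these libraries.

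In skeletal muscle, an action potential runs into the transverse tubules, where the voltage sensor Cav1.1 changes shape and opens the ryanodine receptor of the facing sarcoplasmic reticulum by direct contact. Junctophilins hold the tubule and the reticulum together at these triads, and triadin ties the release channel to calsequestrin, the protein that stores calcium in the lumen. Relaxation follows when parvalbumin binds the released calcium in the cytosol and the pump SERCA1 carries it back into the reticulum, an arrangement for which fast fibres are known.

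Levels are given as log2 CPM, the log2 of counts per 1000000 counts, which the authors had scaled by the TMM method, and changes are C2-/- minus WT on that scale. A gene was past the threshold when its change passed an adjusted p of 0.05 in limma, with the Benjamini-Hochberg adjustment over all 12239 genes, and exceeded 1.5-fold. The libraries held 2613277 to 15464499 reads in genes, and the 3 deepest were WT replicates 1 to 3. WT replicate 4 had 4683853 reads, a depth close to that of C2-/- replicate 3, and on several genes below it stood apart from the other WT libraries. *Mybpc2* had log2 values of 12.41 to 12.85 in WT and of -0.47 to 1.67 in C2-/-, so that every library had the level its label calls for. Of the fast-fibre markers other than *Mybpc2*, 7 of 7 were detected, with a summed level of 94500 to 123000 CPM in WT and 74100 to 89300 CPM in C2-/-. The slow-fibre markers summed to 0.683 to 43.8 CPM in WT and 4.13 to 14.2 CPM in C2-/-, with *Myh7* at 0 reads in C2-/-. The 6 fibroblast markers summed to 472 to 798 CPM in WT and 1540 to 1880 CPM in C2-/-, and 5 of them were past the threshold as higher, where 20.2% of all genes were. With GC-corrected values 3 of the 6 were past it, and against WT replicate 4 alone 1 of the 6 was. In bulk tissue, fewer fibres and less RNA per fibre cannot be told apart, and the part of these cell type differences in the results below was not tested.

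Of the 9 genes analysed, 8 were past the threshold in C2-/- muscle, where 45.2% of all genes were. The genes of the voltage sensor, its adaptor, the release channel, junctophilin 2, calsequestrin 1, parvalbumin and SERCA1 were lower. These are 7 genes, against a share of 25.0% of all genes called lower. Only *Trdn* was called higher, against 20.2% of all genes, and *Jph1* was higher by less than 1.5-fold. The median change of the 9 genes was -1.35, and that of all genes was -0.14. The C2-/- values of 8 genes lay wholly on one side of the WT values, which was so for 49.3% of all genes, and *Trdn* overlapped. The study used these libraries to look for changed gene programmes in the absence of fMyBP-C. The values of the 9 genes in each library are drawn in order of their place in the cycle.

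**Figure D1:**
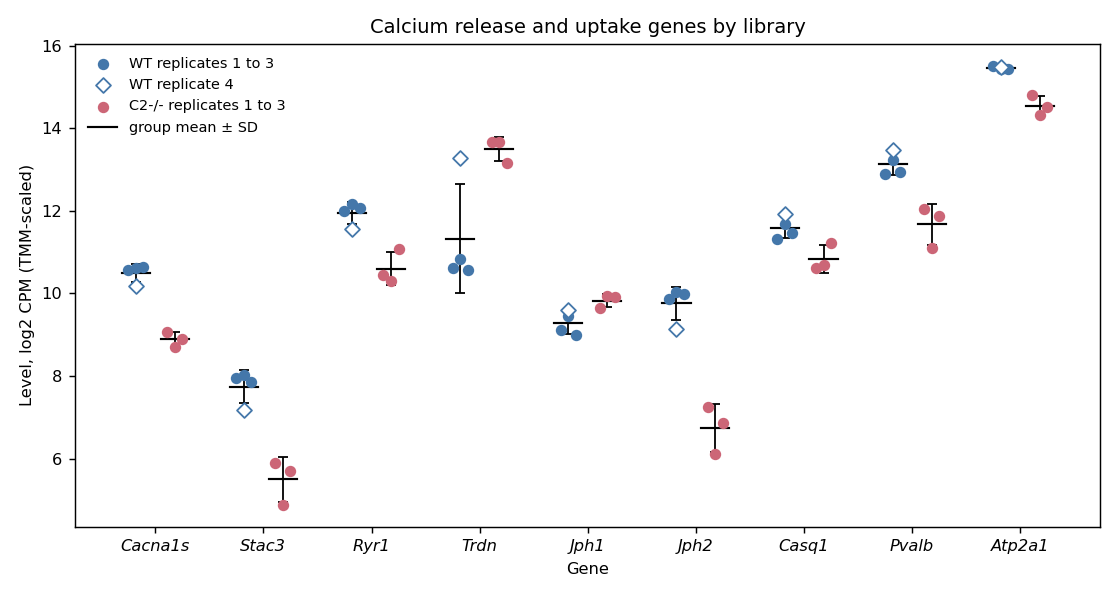
Level (log2 CPM, TMM-scaled) of the 9 calcium release and uptake genes in each library, with WT in blue, WT replicate 4 as an open diamond, C2-/- in red, and bars for the group mean ± SD. *Jph2* has the widest gap between the groups, from 9.15 in the lowest WT library to 7.26 in the highest C2-/- library, and in *Trdn* WT replicate 4 (13.29) lies within the C2-/- range.

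*Cacna1s* encodes the pore-forming subunit of Cav1.1, the voltage sensor of the tubule membrane. Its log2 values were 10.56, 10.61, 10.63 and 10.18 in WT replicates 1 to 4 and 9.06, 8.71 and 8.89 in C2-/- replicates 1 to 3. The groups did not overlap, although WT replicate 4 lay below the other WT libraries. The level fell by 1.61 on the log2 scale (SE 0.17, limma adjusted p = 0.000294), a 3.05-fold lower level. After the GC correction described below the change was -0.73. The gene has 44 annotated exons at 136052750 to 136119822 of chromosome 1 (GRCm38, plus strand). It shares 1309 of 6550 exonic bases (19.98%) with the antisense gene Gm37759, which was not analysed here, and the use of strand in counting was not stated.

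*Stac3* encodes the adaptor protein that Cav1.1 needs in order to reach the tubule and to open the release channel. The gene stood at log2 values of 7.94, 8.02, 7.85 and 7.17 in WT and 5.90, 4.88 and 5.71 in C2-/-. Every C2-/- library lay below every WT library. The fall was 2.25 on the log2 scale (SE 0.28, limma adjusted p = 0.000447), or 4.75-fold, and rested on 78 to 253 reads per C2-/- library. After the GC correction described below the change was -1.29, and against WT replicate 4 alone it was -1.67. *Stac3* has 12 annotated exons at 127501686 to 127508823 of chromosome 10 (GRCm38, plus strand).

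*Ryr1* encodes the ryanodine receptor, the channel through which calcium leaves the reticulum. In WT its log2 values were 12.00, 12.17, 12.08 and 11.57, and in C2-/- they were 10.44, 10.30 and 11.07. Again the groups were separate, with WT replicate 4 as the lowest WT library and C2-/- replicate 3 as the highest knockout library. *Ryr1* fell by 1.35 (SE 0.24, limma adjusted p = 0.00195), which is 2.55-fold. After the GC correction described below the change was 0.10, and against WT replicate 4 alone it was -0.97, past the threshold in neither (limma adjusted p = 0.79 and 0.123). With 106 annotated exons, *Ryr1* spans 29003344 to 29125179 of chromosome 7 (GRCm38, minus strand), 15.4 Mb from *Mybpc2*.

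*Trdn* encodes triadin, which anchors calsequestrin at the release channel. Its log2 values in WT replicates 1 to 3 were 10.61, 10.84 and 10.57, whereas WT replicate 4 stood at 13.29. The C2-/- libraries stood at 13.67, 13.67 and 13.17, so that 1 of the 4 WT libraries lay among them. By limma, *Trdn* rose by 2.18 (SE 0.58, adjusted p = 0.0127), or 4.52-fold. Without WT replicate 4 the rise was 2.83 (limma adjusted p = 4.5e-05), and against WT replicate 4 alone the difference was 0.21 (limma adjusted p = 0.84). In that last fit the lone WT library is assumed to vary like the C2-/- libraries. After the GC correction described below, the change was 0.76 and not past the threshold. *Trdn* has 38 annotated exons at 33080554 to 33476709 of chromosome 10 (GRCm38, plus strand).

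The junctophilins span the gap between the tubule and the reticulum, *Jph1* as the skeletal muscle form and *Jph2* as the form shared with the heart. *Jph1* had log2 values of 9.12, 9.45, 9.0 and 9.60 in WT and 9.64, 9.93 and 9.91 in C2-/-. The groups were separate, but WT replicate 4 and C2-/- replicate 1 differed by little. The change of *Jph1* was 0.54 (SE 0.19, limma adjusted p = 0.038), or 1.45-fold, and was not past the threshold. Without WT replicate 4 it was 0.64 and past it.

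*Jph2* had the largest fall of the 9 genes before GC correction. Its log2 values were 9.87, 10.03, 9.98 and 9.15 in WT and 7.26, 6.12 and 6.87 in C2-/-. No C2-/- library came near a WT library, and the knockout libraries held 185 to 564 reads of the gene. The fall was 3.01 (SE 0.29, limma adjusted p = 0.000231), an 8.06-fold lower level. After the GC correction described below the change was -1.16 (limma adjusted p = 0.00168). With that correction *Pvalb* (-1.39) and *Stac3* (-1.29) fell further. *Jph1* spans 16964560 to 17097889 of chromosome 1 and *Jph2* spans 163336242 to 163397993 of chromosome 2 (GRCm38, both on the minus strand).

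*Trdn*, *Jph1* and *Jph2* differ in base composition. The GC content of the whole transcript was 36.8%, 46.7% and 61.8% in turn. It is this measure that tracked the fold changes over all genes and is taken up again below. The middle 120 bases of each coding sequence are shown with G and C in capitals, 5′ to 3′ along the annotated transcript (GENCODE, GRCm38). They were chosen because *Trdn* and *Jph2* are the members with the lowest and the highest GC content and *Jph1* is the paralog of *Jph2*.
Trdn: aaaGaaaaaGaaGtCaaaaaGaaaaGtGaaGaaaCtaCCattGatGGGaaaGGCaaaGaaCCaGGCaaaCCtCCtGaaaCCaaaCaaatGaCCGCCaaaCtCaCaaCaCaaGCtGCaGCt
Jph1: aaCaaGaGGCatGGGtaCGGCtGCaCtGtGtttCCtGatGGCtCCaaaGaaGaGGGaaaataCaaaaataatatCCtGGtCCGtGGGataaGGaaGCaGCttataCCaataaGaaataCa
Jph2: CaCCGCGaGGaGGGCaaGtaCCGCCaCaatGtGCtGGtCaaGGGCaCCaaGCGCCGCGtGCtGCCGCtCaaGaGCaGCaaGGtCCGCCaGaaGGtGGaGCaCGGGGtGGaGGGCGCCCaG
G and C make up 40.8% of the *Trdn* stretch, 42.5% of the *Jph1* stretch and 68.3% of the *Jph2* stretch. The *Jph1* stretch is lower in GC than its coding sequence as a whole. Over the whole coding sequences the GC content was 39.6%, 55.5% and 67.1%, and at the third position of codons it was 33.2%, 60.9% and 78.3%.

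*Casq1* encodes calsequestrin 1, the main calcium store of the fast-fibre reticulum. Its log2 values were 11.33, 11.67, 11.46 and 11.92 in WT and 10.61, 10.68 and 11.22 in C2-/-. The groups did not overlap, although C2-/- replicate 3 came close to WT replicate 1. *Casq1* fell by 0.76 (SE 0.22, limma adjusted p = 0.0195), or 1.69-fold, and its GC-corrected change was -0.28 and not past the threshold. When each library was left out in turn, the uncorrected call was lost in 3 of 7 fits, those without WT replicate 2 (-0.73) and without C2-/- replicate 1 (-0.64) or 2 (-0.68). *Casq1* spans 172209894 to 172219868 of chromosome 1 (GRCm38, minus strand).

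*Pvalb* encodes parvalbumin, the cytosolic calcium buffer that speeds relaxation of fast fibres. In WT its log2 values were 12.89, 13.24, 12.95 and 13.47, and in C2-/- they were 12.05, 11.11 and 11.87. All knockout libraries lay below all WT libraries, and for this gene WT replicate 4 was the WT library farthest from them. The fall was 1.46 (SE 0.28, limma adjusted p = 0.00265), or 2.75-fold. Its 4 annotated exons are at 78191114 to 78206400 of chromosome 15 (GRCm38, minus strand).

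*Atp2a1* encodes SERCA1, the calcium pump of fast fibres, and per length of transcript was the most abundant of the 9 genes. Its log2 values were 15.51, 15.44, 15.44 and 15.49 in WT, a narrow range that held WT replicate 4, and 14.80, 14.33 and 14.52 in C2-/-. In WT, reads of this gene alone made up 4.48% ± 0.23 of all reads (SD, n = 4), and in C2-/- they made up 2.47% ± 0.475 (SD, n = 3). *Atp2a1* fell by 0.92 (SE 0.31, limma adjusted p = 0.0314), or 1.89-fold. It was past the threshold in 4 of 12 other ways of processing, and with the GC correction described below the sign turned (0.15, limma adjusted p = 0.754). Although the groups were well apart, the adjusted p was near the threshold, and the call was lost without WT replicate 1 (-0.91), 2 (-0.93) or 3 (-0.93), at nearly the same size of change. *Atp2a1* spans 126445858 to 126463108 of chromosome 7 (GRCm38, minus strand), 81.9 Mb from *Mybpc2*. It shares 763 of 3477 exonic bases (21.94%) with *Rabep2* on the opposite strand, and the use of strand in counting was not stated. The part of reads from the shared bases was not tested. Per kilobase of transcript *Rabep2* stood at 243 ± 52.6 CPM in WT (SD, n = 4) against 13100 ± 335 for *Atp2a1*. In log2 CPM *Rabep2* was at 8.66 to 9.39 in WT and 7.13 to 7.48 in C2-/-, a lower level in the same direction before GC correction. After it the *Rabep2* change was -0.11 (limma adjusted p = 0.66).

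The changes of the 9 genes followed the GC content of their transcripts, as did those of all genes. Spearman's rho between GC content and change was -0.70 over the 9 genes and -0.68 over 12176 genes, a description in which all points share the same 7 libraries. When all genes were put in 10 equal bins by GC content, *Trdn*, at 36.8% GC, lay in the lowest bin, where the median change was 1.12. *Jph2*, at 61.8% GC, lay in the highest bin, where it was -1.73. *Atp2a1* (55.3% GC, change -0.92) and *Ryr1* (58.0% GC, change -1.35) differed little from the medians of their bins, which were -1.01 and -1.28. *Pvalb* departed most from its bin, for its change was -1.46 at 49.3% GC beside a median of 0.01. *Stac3* (-2.25) and *Cacna1s* (-1.61) were both in a bin with a median of -1.01.

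**Figure D2:**
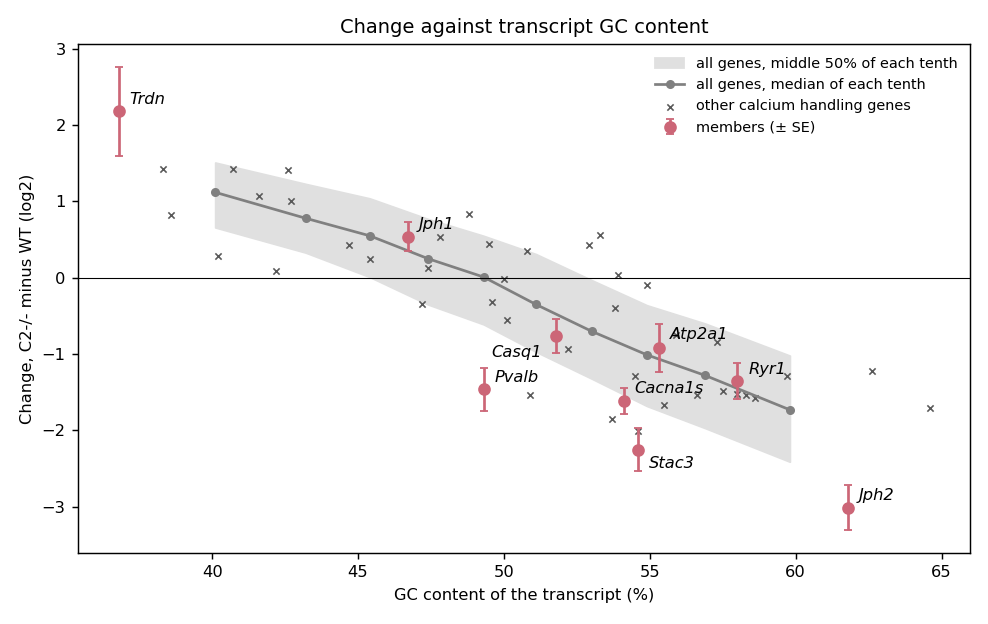
Change of each gene (C2-/- minus WT, log2) against the GC content of its transcript (%), with the 9 members in red (± SE), other calcium handling genes as crosses, the median of each of 10 bins of all genes as a grey line and the middle 50% of each bin as a band. The grey median runs from 1.12 to -1.73 across the bins, *Atp2a1* and *Ryr1* lie beside it, *Pvalb* and *Stac3* lie below the band, and *Jph2* (-3.01) lies below the lower quartile of the highest bin (-2.41).

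The log2 values were therefore also corrected for GC content, by removing from each library its departure from the mean GC curve of the 7 libraries. After this correction 20.6% of all 12176 genes were past the threshold in either direction, 1494 of them higher and 1014 lower. Of the 9 genes, 4 were past it, all of them lower. These were *Stac3* (-1.29, limma adjusted p = 0.00322), *Pvalb* (-1.39, limma adjusted p = 0.00659), *Jph2* (-1.16, limma adjusted p = 0.00168) and *Cacna1s* (-0.73, limma adjusted p = 0.00567). The corrected change was 0.10 for *Ryr1* (95% interval -0.41 to 0.61) and 0.15 for *Atp2a1* (-0.52 to 0.82), so that their sign turned. It was -0.28 for *Casq1* (-0.84 to 0.27), 0.76 for *Trdn* (-0.37 to 1.90) and 0.21 for *Jph1* (-0.17 to 0.60). With the correction and without WT replicate 4, an alternative chosen after seeing the data, *Trdn* was past the threshold (1.32, limma adjusted p = 0.00239). The median change of the 9 genes was -0.28 after correction, beside 0.02 for all genes. Whether GC content acts on these measurements or marks genes that differ for another reason was not tested.

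The same 4 genes were past the threshold when WT replicate 4 was the only WT library, a fit that called 4.53% of all genes. The C2-/- mean minus that library was -1.30 for *Cacna1s*, -1.67 for *Stac3*, -1.79 for *Pvalb* and -2.40 for *Jph2*. These 4 genes were past the threshold in each of the 12 other ways of processing and in each of the 7 fits that left out 1 library. The changes nearest to 0 over the 12 were -0.69 for *Cacna1s*, -1.29 for *Stac3*, -1.12 for *Pvalb* and -1.05 for *Jph2*. *Trdn* was called in 9 of the 12, *Ryr1* in 8, *Casq1* in 6, *Atp2a1* in 4 and *Jph1* in 2.

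**Figure D3:**
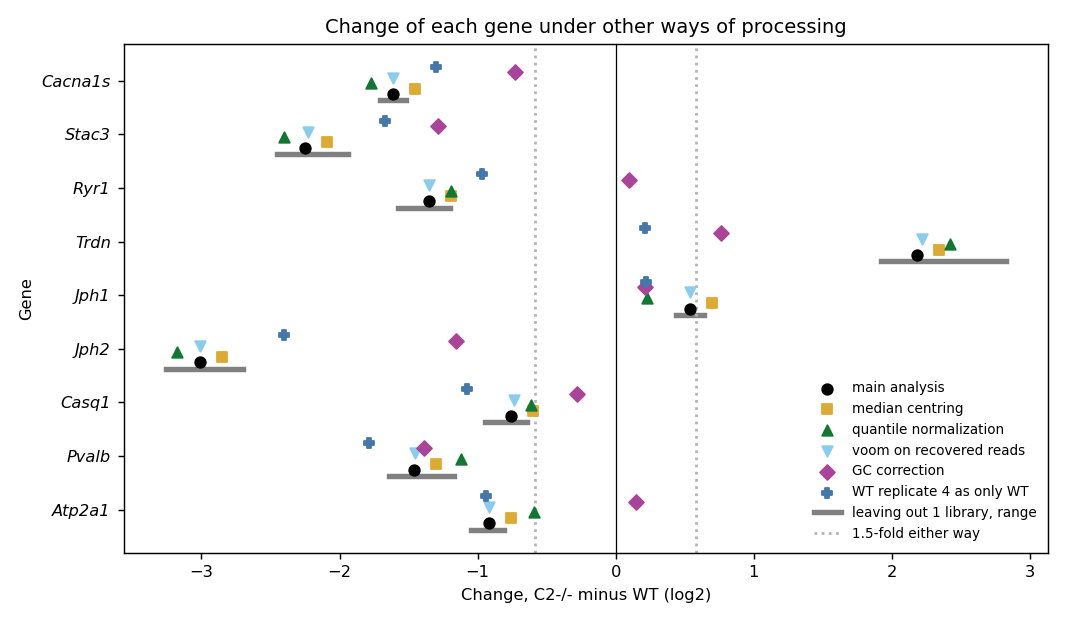
Change of each of the 9 genes (C2-/- minus WT, log2) in the main analysis and under 5 other ways of processing, each with its own symbol, and the range over the fits that left out 1 library as a grey bar; dotted lines mark 1.5-fold. *Cacna1s*, *Stac3*, *Jph2* and *Pvalb* stay left of the lower dotted line throughout, *Atp2a1* and *Ryr1* move to 0.15 and 0.10 with the GC correction, and *Trdn* moves to 0.21 with WT replicate 4 as the only WT library.

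To compare partners of the same machine within a library, the log2 ratio of 8 pairs of genes was taken, a measure that does not depend on the scaling of the library. The ratio of *Jph1* to *Jph2* was -0.75, -0.59, -0.98 and 0.46 in WT and 2.38, 3.82 and 3.04 in C2-/-. It was higher by 3.55 in C2-/-, with no overlap, and by 1.37 after GC correction (two-sided exact permutation p = 0.02857 for both). This p is the smallest that the 35 splits of 7 libraries allow, and over the 8 ratios it became 0.07619 after Benjamini-Hochberg adjustment. No ratio passed an adjusted p of 0.05.

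Relative to *Atp2a2*, the SERCA2 gene of slow fibres and heart, *Atp2a1* was lower by 1.27 in C2-/-. The ratio was 10.04, 9.98, 9.81 and 10.11 in WT and 9.25, 8.48 and 8.42 in C2-/- (exact permutation p = 0.02857, adjusted p = 0.07619). With GC correction it differed by -0.51 (exact permutation p = 0.08571). *Stac3* was lower relative to *Cacna1s* by 0.64 (exact permutation p = 0.02857), and in WT replicate 4 the ratio (-3.01) lay near the highest C2-/- value (-3.16). *Cacna1s* relative to *Ryr1* differed by -0.26 with overlapping groups (exact permutation p = 0.2571), and by -0.83 after GC correction (exact permutation p = 0.02857). *Pvalb* relative to *Atp2a1* differed by -0.54 (exact permutation p = 0.05714), and by -1.54 after GC correction (exact permutation p = 0.02857). The *Trdn* to *Ryr1* ratio was -1.38, -1.33 and -1.51 in WT replicates 1 to 3 but 1.72 in the fourth WT library. In C2-/- it was 3.22, 3.37 and 2.10, a difference of 3.53 (exact permutation p = 0.05714). The GC-corrected difference was 0.67 (exact permutation p = 0.40). *Casq1* did not differ beyond the spread of the libraries relative to *Atp2a1* (0.16, exact permutation p = 0.60) or to *Casq2* (-0.42, exact permutation p = 0.7429), and neither ratio separated the groups.

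**Figure D4:**
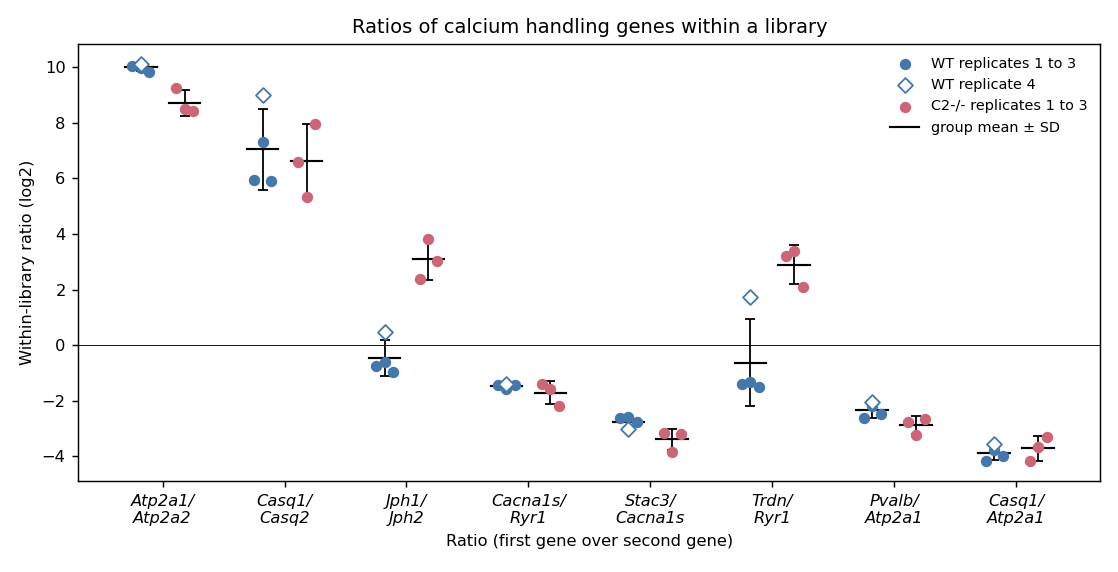
Log2 ratio of 8 pairs of calcium handling genes within each library (not scaled for transcript length), with WT in blue, WT replicate 4 as an open diamond, C2-/- in red and bars for the group mean ± SD. The ratio of *Jph1* to *Jph2* moves from -0.46 in WT to 3.08 in C2-/-, and the ratio of *Trdn* to *Ryr1* is widely spread in WT because replicate 4 stands at 1.72.

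Per kilobase of transcript, the 9 genes covered a wide range of levels in WT. *Atp2a1* stood at 13100 ± 335 CPM per kb, *Pvalb* at 9330 ± 1780 and *Casq1* at 1700 ± 310 (SD, n = 4). These 3 genes did not overlap each other over the WT libraries. *Trdn* followed at 827 ± 928 CPM per kb, a spread set by WT replicate 4 that overlapped *Casq1*. *Ryr1* (262 ± 44.2), *Cacna1s* (233 ± 31.7), *Jph2* (211 ± 52.3), *Jph1* (132 ± 25.6) and *Stac3* (123 ± 29.0) came below it, and each of these overlapped its neighbour in the order. In C2-/- *Trdn* stood above *Casq1*, at 2610 ± 484 against 1010 ± 248 CPM per kb (SD, n = 3), without overlap. *Jph1* (190 ± 20.8) stood above *Ryr1* (104 ± 31.3), and *Jph2* (26.8 ± 9.95) was level with *Stac3* (26.3 ± 8.85). *Atp2a1* was at the top in both groups without overlap. *Pvalb* came next by its mean, but in C2-/- its range (2260 to 4330) overlapped that of *Trdn* (2050 to 2890). These levels were not corrected for GC content, which was 36.8% for *Trdn* and 51.8% for *Casq1*. Whether the order in C2-/- holds with the correction was not tested.

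Among the 49 calcium handling genes analysed, members included, the gene most alike in pattern to each member over the 7 libraries was found by Pearson's r of the log2 values. No other genes were searched. *Cacna1s*, *Jph2* and *Stac3* went together, with an r of 0.996 between *Cacna1s* and *Jph2* and between *Jph2* and *Stac3*. *Pvalb* (r = 0.992) and *Atp2a1* (r = 0.983) were most like *Calm3*, a calmodulin gene. *Ryr1* was most like *Jsrp1* (r = 0.985), the gene of a triad protein, and *Trdn* was most like *Atp2b1* (r = 0.945), that of a plasma membrane calcium pump. *Jph1* was most like *Cacna2d1* (r = 0.938) and *Casq1* most like *Sypl2* (r = 0.91). These values share the difference between the groups and the depth of the libraries.

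Promoter sequences were compared because *Cacna1s*, *Jph2*, *Pvalb* and *Stac3* were lower in every fit. RefSeq promoters (GRCm38.p6, 250 bases before to 50 after the start) were matched for 6 of the 9 genes, and *Trdn*, *Jph1* and *Stac3* had no entry. Below are 3 of them, 5′ to 3′ on the strand of the gene. Capitals mark matches on either strand to CANNTG, the E-box bound by myogenic factors, or to the MEF2 site, the A/T-rich element of muscle genes.
Cacna1s, chr1:136052561-136052860, plus strand: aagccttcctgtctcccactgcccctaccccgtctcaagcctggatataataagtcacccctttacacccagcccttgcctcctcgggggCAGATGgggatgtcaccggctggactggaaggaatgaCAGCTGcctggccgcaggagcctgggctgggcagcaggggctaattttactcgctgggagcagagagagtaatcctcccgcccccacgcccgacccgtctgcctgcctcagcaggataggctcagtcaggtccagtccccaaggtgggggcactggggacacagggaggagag
Jph2, chr2:163397944-163398243, minus strand: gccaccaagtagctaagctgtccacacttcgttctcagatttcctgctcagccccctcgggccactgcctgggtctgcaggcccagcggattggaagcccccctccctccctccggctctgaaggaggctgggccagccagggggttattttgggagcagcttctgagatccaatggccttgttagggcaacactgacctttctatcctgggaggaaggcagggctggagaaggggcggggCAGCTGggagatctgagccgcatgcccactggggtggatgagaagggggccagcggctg
Pvalb, chr15:78206351-78206650, minus strand: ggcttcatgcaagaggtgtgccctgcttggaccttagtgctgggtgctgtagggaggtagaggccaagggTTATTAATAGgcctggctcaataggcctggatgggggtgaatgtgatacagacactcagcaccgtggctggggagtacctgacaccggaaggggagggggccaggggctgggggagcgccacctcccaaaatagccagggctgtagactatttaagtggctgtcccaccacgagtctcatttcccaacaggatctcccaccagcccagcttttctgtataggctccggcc
CANNTG was found in 5 of the 6 genes and in 72.31% of 32851 RefSeq promoters of this length. *Cacna1s* holds it at -160 and -123 and *Jph2* at -9 from the start. The upstream *Pvalb* promoter holds the MEF2 site at -180 and no CANNTG, and its alternative promoter holds CANNTG at -111 and 17. The MEF2 site was found in 3.19% of all these promoters and in no other member. CATTCC, searched on both strands, was in the *Cacna1s* promoter and in 14.66% of all, and TATAAA was in 0 of the 6 and in 13.62% of all. Members were counted per gene and the background per promoter, and *Jph2* and *Pvalb* each have an alternative promoter. A match describes these letters and is not evidence of binding.

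Of 49 other calcium handling genes listed by role, 40 were analysed and 20 were past the threshold, 14 lower and 6 higher, with a median change of -0.21. This count is near the 45.2% of all genes called. In 23 of the 40 the groups did not overlap, where 49.3% of all genes did not. After GC correction 10 of the 40 were past it, 3 lower and 7 higher, near the 20.6% of all genes. The 3 were *Tmem38a*, *Srl* and *Canx*, and of these *Canx*, the gene of the chaperone calnexin (0.09 without and -0.76 with the correction), was named after its values were seen. The 7 were *S100a1* (0.88), *Speg* (0.70), *Hrc* (1.30), *Atp2a2* (0.66), *Mrln* (0.81), *Slc8a3* (1.10) and *Atp2b1* (0.61), of which *S100a1* and *Slc8a3* were also named after their values were seen.

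Among the subunits and partners of the voltage sensor and the release channel, 4 of 9 fell and 2 rose, beside 25.0% and 20.2% of all genes. Besides *Jsrp1*, those that fell were *Calm3* (-1.53), *Cacnb1* (-1.29) and *Cacng1* (-0.75), listed here after their values were seen. After GC correction their changes were -0.05, 0.36 and 0.41, and none of these 3 was past the threshold. *Jsrp1* fell by 1.71 (limma adjusted p = 0.00191), with values of 8.06, 8.03, 8.04 and 7.07 in WT and 6.10, 5.57 and 6.61 in C2-/-. WT replicate 4 was the lowest WT library here, and the change against it alone was -0.97. The GC-corrected change was 0.34. *Cacna2d1*, the gene of the auxiliary α2δ subunit of Cav1.1, rose by 1.42 (limma adjusted p = 0.00358), from 8.72 to 9.89 in WT to 10.16 to 10.87 in C2-/-, and after GC correction the change was 0.41. *Calm2*, a calmodulin gene, rose by 1.0 (limma adjusted p = 0.001) and had a corrected change of 0.21.

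Among the genes of the triad and the tubule, 6 of 9 fell and 2 rose, where 25.0% and 20.2% of all genes did. After GC correction 1 of the 9 was called lower and 1 higher, near the 20.6% of all genes called in either direction. The latter was *Speg*, the gene of a muscle kinase, which turned from -1.22 to 0.70 (limma adjusted p = 0.0123) and was named after its values were seen. *Tmem38a* encodes TRIC-A, the potassium channel of the reticulum that balances charge during calcium release. Its log2 values were 10.39, 10.54, 10.51 and 10.23 in WT and 8.74, 8.21 and 8.75 in C2-/-, far apart. *Tmem38a* fell by 1.85 (SE 0.18, limma adjusted p = 0.000231), and by 1.04 after GC correction (limma adjusted p = 0.00242). It was also past the threshold against WT replicate 4 alone (limma adjusted p = 0.00679). Its paralog *Tmem38b*, that of TRIC-B, rose by 1.07 (limma adjusted p = 0.00226), with a corrected change of 0.15. *Dysf*, the gene of the membrane repair protein dysferlin, fell by 1.67 (limma adjusted p = 0.000294), and the corrected change was -0.57, just short of the fold minimum. *Mtm1*, the gene of the phosphoinositide phosphatase myotubularin, rose by 1.42 (limma adjusted p = 0.00191), with a corrected change of 0.16.

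Of the 5 genes of the lumen, 1 fell, a share near the 25.0% of all genes. It was *Srl*, the gene of sarcalumenin, a calcium-binding protein, and it was named after its values were seen. *Srl* stood at 10.89, 11.12, 11.01 and 10.91 in WT and 9.50, 9.46 and 9.38 in C2-/-, a tight and separate pair of groups. Its change was -1.54 (SE 0.15, limma adjusted p = 0.000231), and -1.21 after GC correction (limma adjusted p = 0.0012). *Hrc*, the gene of the histidine-rich calcium-binding protein, also named after its values were seen, had a change of 0.56, under the fold minimum, and of 1.30 after GC correction (limma adjusted p = 0.00203). *Hrc* spans 45335290 to 45338974 of chromosome 7 (GRCm38), where *Mybpc2* spans 44501699 to 44524656, and the part of this nearness was not tested. *Casq2*, the gene of the cardiac and slow-fibre calsequestrin, ranged from 2.93 to 5.56 in WT and from 3.27 to 5.36 in C2-/- (change -0.34, limma adjusted p = 0.684).

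Of the 4 pump genes and regulators analysed, 1 rose, a share near the 20.2% of all genes. *Mrln* encodes myoregulin, a small membrane protein that inhibits SERCA in skeletal muscle. The gene stood at 5.18, 5.28, 4.82 and 4.63 in WT and 5.84, 5.85 and 5.74 in C2-/-, without overlap. *Mrln* rose by 0.84 (SE 0.21, limma adjusted p = 0.00984), and the GC-corrected change was 0.81 (limma adjusted p = 0.0199). With GC content and length corrected together it was 0.39 and not past the threshold (limma adjusted p = 0.302). The change of *Atp2a2* was 0.35 (limma adjusted p = 0.156), and after GC correction it was 0.66 and past the threshold (limma adjusted p = 0.0398). The change of *Atp2a3*, the non-muscle pump gene SERCA3, was -0.84 (limma adjusted p = 0.0776), and that of *Pln*, the gene of phospholamban, was 0.82 (limma adjusted p = 0.185). In *Atp2a2*, *Atp2a3* and *Pln* the groups overlapped before correction.

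Of the 10 genes of store-operated entry and the plasma membrane, 3 fell and 1 rose, shares near or below the 25.0% and 20.2% of all genes. *Stim1*, the gene of the store sensor, fell by 1.29 (limma adjusted p = 0.000695), had a corrected change of -0.35 and was named after its values were seen. *Orai1* and *Orai3* encode channels that refill the store from outside the cell. *Orai1* fell by 1.58 (limma adjusted p = 0.00338). Its corrected change was -0.05, and its change against WT replicate 4 alone was -1.38. *Orai3* fell by 2.01 (limma adjusted p = 0.0262), but it had 24, 2 and 14 reads in the C2-/- libraries, and the call was lost in 5 of the 7 fits that each lacked 1 library. These were the fits without WT replicate 1 (-1.97), 2 (-1.97) or 3 (-1.96) and without C2-/- replicate 2 (-1.20) or 3 (-2.05). *Atp2b1* rose by 1.41 (limma adjusted p = 0.00177) and by 0.61 after GC correction (limma adjusted p = 0.0499). With GC content and length corrected together (0.60, limma adjusted p = 0.0509) and against WT replicate 4 alone (0.74, limma adjusted p = 0.153) it was not past the threshold. Of the 3 IP3 receptor genes, 0 were past the threshold by limma on the log2 values or by voom, beside 45.2% of all genes, and 1 had an unadjusted p under 0.05 by each.

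**Figure D5:**
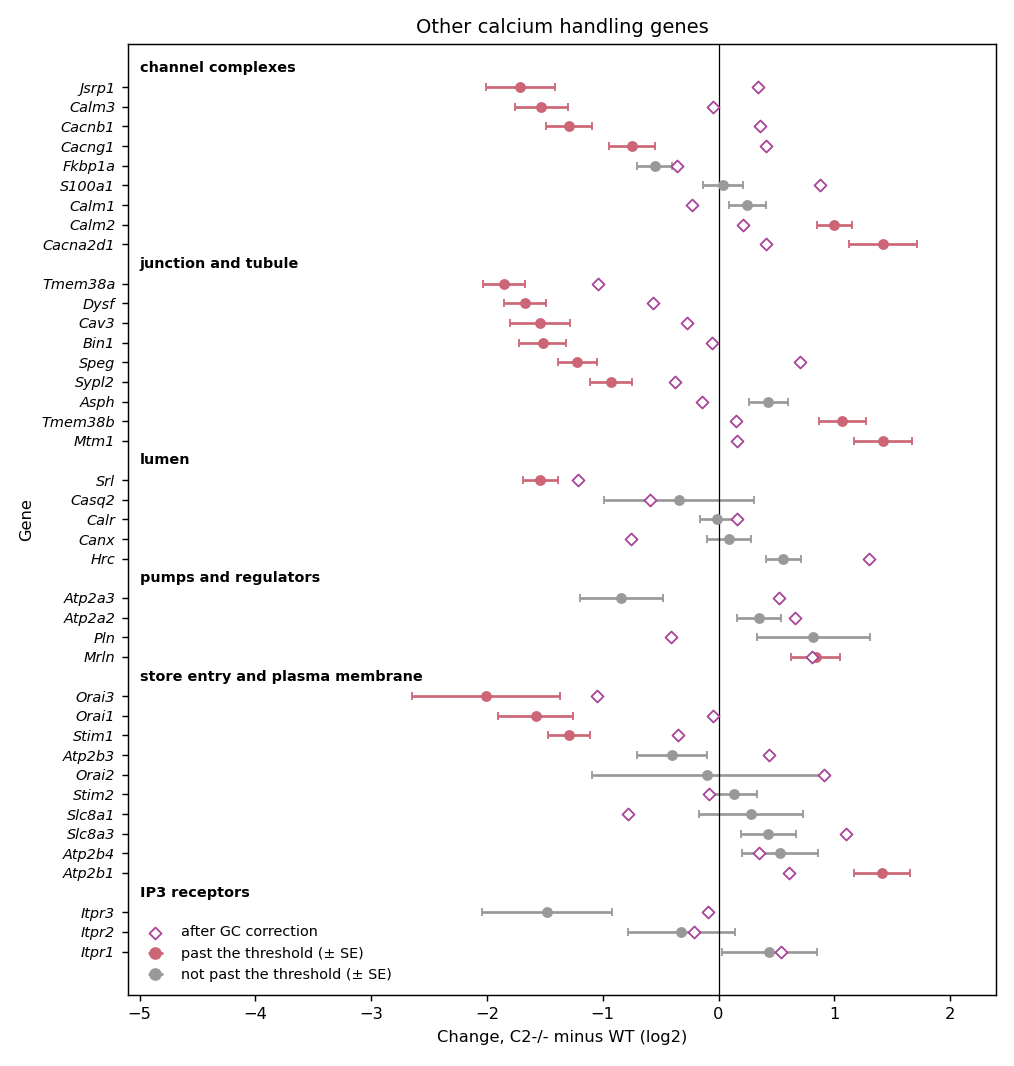
Change (C2-/- minus WT, log2) of 40 other calcium handling genes grouped by role, with filled circles for the main analysis (± SE, red where past the threshold) and open diamonds for the change after GC correction. *Tmem38a* (-1.85 and -1.04) and *Srl* (-1.54 and -1.21) are low in both, *Mrln* (0.84 and 0.81) is high in both, and many others move close to 0 with the correction.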

How the data were processed

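The authors aligned filtered reads to GRCm38.p6 with HISAT, counted them per gene with featureCounts 1.5.2 and scaled them with edgeR's TMM factors. They deposited log2 CPM values for 12239 genes in 7 libraries. The filter on genes, multiply mapped reads and use of strand were not given in the sources used here. A second deposited table of the authors' own fold changes and p-values was not used. Every value was the log2 of a whole number of reads plus 0.5 over the effective library size. Undoing this gave whole reads for 100% of values, with a largest departure from a whole number of 2.17e-08 reads, and 2613277 to 15464499 reads per library. At that depth 3 reads are 0.195 to 1.12 CPM, a limit that covers counting error only. All 21 pairs of libraries differed by more than sampling noise (chi-square of at least 9.12 per degree of freedom).

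The log2 values were fitted with limma 3.58.1 (R 4.3.3, lmFit and eBayes with trend), with genotype as the only term, two-sided, and Benjamini-Hochberg adjustment over all genes. The code was tested on simulated data. GC content came from 1 GENCODE transcript per gene, matched for 12176 genes, and was corrected with a spline of 5 degrees of freedom per library. Voom on the recovered reads, quantile normalization, median centring, library quality weights, eBayes without trend, a filter at a mean log2 of 3, an added 2 CPM, a replicate block and leaving out each library were tried as well. Ratios of genes were compared by exact permutation of the libraries, over the 8 of 10 listed ratios whose genes were analysed. Named were the members, *Mybpc2*, the listed paralogs and pump regulators and, per direction, the 5 other calcium handling genes with the largest changes past the threshold whose mean in the higher group reached 1 on the log2 scale. The members and lists were chosen with earlier results of these data known. The sample titles and labels give an age of 5 to 6 months, although the study's methods start the range earlier. The study's legend for these libraries gives 3 to 5 months. The series' design text gives 4 animals in each group, and 3 C2-/- libraries were analysed.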

Additional observations from a re-analysis of the deposited data

Results flagged for a closer look

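In 6 of 32 values tested in the WT group a single library stood far from the others. In all 6 it was WT replicate 4. Chance gives about 1.6 such values for any WT library, taking the values as independent. They are not, since *Trdn* also enters a ratio. *Trdn* had a log2 value of 13.29 in WT replicate 4 against 10.57 to 10.84 in the other WT libraries. The *Trdn* to *Ryr1* ratio was 1.72 against -1.51 to -1.33. *Cacna1s* stood at 10.18 against 10.56 to 10.63. *Jsrp1* stood at 7.07 against 8.03 to 8.06, *Tmem38b* at 6.97 against 6.33 to 6.39, and *Orai3* at 3.09 against 3.68 to 3.69. In all 6 values WT replicate 4 departed toward the C2-/- libraries. It held 4683853 reads against at least 14929214 in the other WT libraries, and the part of depth or of any other difference in its preparation was not tested.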

How the results depend on the processing

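The falls of *Cacna1s*, *Stac3*, *Jph2* and *Pvalb* kept their direction and stayed past the threshold under every alternative run. With the GC correction, the change became 0.15 for *Atp2a1*, -0.28 for *Casq1*, 0.10 for *Ryr1*, 0.76 for *Trdn*, 0.52 for *Atp2a3*, -0.41 for *Pln* and 0.34 for *Jsrp1*. It left 4 members, 3 lower calcium handling genes and 2508 genes in all past the threshold, 59.6% of the last higher against 44.7% without it. The ratios became -0.51 for *Atp2a1* to *Atp2a2*, 0.31 for *Casq1* to *Casq2*, -0.83 for *Cacna1s* to *Ryr1*, -0.56 for *Stac3* to *Cacna1s*, -1.54 for *Pvalb* to *Atp2a1* and -0.44 for *Casq1* to *Atp2a1*. The *Trdn* to *Ryr1* ratio, 3.53 without it, became 0.67. *Atp2a2* was past the threshold with the GC correction (0.66) and with GC and length corrected (0.73), and *Mrln* was not with the latter (0.39). With GC and length corrected together, the changes were 0.25, -0.32, 0.03, 0.81, 0.60, -0.39 and 0.19 for *Atp2a1*, *Casq1*, *Ryr1*, *Trdn*, *Atp2a3*, *Pln* and *Jsrp1* in turn and -0.01 for *Calm2*. The counts were 4, 3 and 2513, and the first 6 ratios above were, in order, -0.48, 0.21, -0.72, -0.65, -1.90 and -0.57. With the GC correction and without WT replicate 4, an alternative chosen after seeing the data, the change was 0.25 for *Atp2a1*, -0.13 for *Casq1*, 0.09 for *Ryr1*, 0.45 for *Atp2a3*, -0.68 for *Pln*, 0.27 for *Jsrp1* and 0.01 for *Orai1*, with counts of 5, 4 and 3128, and *Atp2a2* (0.66) was past the threshold. The cause was not tested.

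With WT replicate 4 as the only WT library, *Atp2a1* (-0.94), *Casq1* (-1.08), *Ryr1* (-0.97) and *Trdn* (0.21) were not past the threshold, and *Casq2* was at 1.29. By limma, 4 members, 0 higher and 6 lower calcium handling genes and 554 genes in all were past it, and 6 of the higher ones had an unadjusted p under 0.05. This fit has fewer samples. The ratios were -2.37 for *Casq1* to *Casq2*, 2.62 for *Jph1* to *Jph2*, 1.18 for *Trdn* to *Ryr1* and -0.84 for *Pvalb* to *Atp2a1*.

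*Atp2a1* was not past the threshold with library weights (-0.85), quantile normalization (-0.59) or median centring (-0.76), nor was *Casq1* with weights (-0.64) or centring (-0.60), whereas *Jph1* was past it with centring (0.70). Centring moved the median of all genes from -0.14 to 0.02 and made 54.0% of the called genes higher, and quantile normalization made 51.1% higher. At an adjusted p under 0.01 the calls of *Atp2a1* (-0.92), *Casq1* (-0.76) and *Trdn* (2.18) were lost, leaving 5 members and 3216 genes. With no fold minimum *Jph1* (0.54) was called. With 2 CPM added, the *Stac3* to *Cacna1s* ratio was -0.60 (exact permutation p = 0.05714).

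Same-numbered WT and C2-/- libraries did not deviate together (r from -0.064 to 0.053), which gave no sign that the numbers pair them. With so few libraries this cannot exclude pairing. With a replicate block, in which WT replicate 4 has no partner and adds nothing to the change, *Atp2a1* was at -0.91 and not past the threshold, *Jph1* was at 0.64 and past it, and 5901 genes were called.

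When each library was left out in turn, the change ranged from -1.05 to -0.81 for *Atp2a1*, -0.95 to -0.64 for *Casq1* and 0.44 to 0.64 for *Jph1*, and 6 to 9 members and 4095 to 6136 genes were past the threshold. Calls were lost or gained in the fits named with these genes, and *Jph1* was also past it without C2-/- replicate 1 (0.63). *Atp2a3* was past the threshold without WT replicate 4 (-1.01) and without C2-/- replicate 1 (-1.06). *Casq2* reached 0.14 without C2-/- replicate 3. The C2-/- libraries and WT replicate 4 hold the fewest reads, which limits genes with few reads there, such as *Orai3* (2 to 24 reads per C2-/- library) and *Pln* (10 to 36).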

Other observations

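Marker lists of cell types other than fibres and fibroblasts were summed in CPM. Endothelial markers summed to 308 to 488 in WT and 258 to 339 in C2-/-, mural to 241 to 340 and 241 to 425, and macrophage to 23.2 to 44.7 and 46.8 to 70.9. Adipocyte markers summed to 159 to 365 and 471 to 633, Schwann cell to 40.9 to 84.2 and 33.1 to 58.0, satellite cell to 8.42 to 32.5 and 13.1 to 17.0. Of 5 erythroid markers 1 was analysed, *Alas2*, at 4.10 to 5.15 in WT and 1.03 to 2.06 in C2-/-.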
